A study of Mus musculus with 71 samples.

Results

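The comparison described here is cocaine against saline self-administration in the nucleus accumbens (NAc) of mice after 1 day of abstinence, across every gene with enough counts. Its members were the 12 NAc libraries that the labels place at the 1-day time point, 6 from mice that took cocaine and 6 from mice that took saline, out of 71 libraries in the series. The series profiled RNA from micro-punches of the NAc, prefrontal cortex (PFC) and ventral tegmental area (VTA), taken 1 or 28 days after mice had last self-administered the drug or its vehicle. All 12 libraries came from adult C57BL/6 mice of wild type genotype. Mice of both groups were first trained on food, then given a jugular catheter and placed in daily operant sessions, and they differed in the infused solution. Every library expressed Y-linked genes and held at most 0.201 CPM of Xist, the RNA of the inactive X chromosome. The labels do not say how many mice went into a library, so the p-values below measure the spread between these libraries.

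The NAc is the ventral part of the striatum. Most of its neurons are GABA-releasing medium spiny neurons, which carry either D1 or D2 dopamine receptors and combine dopamine input from the VTA with glutamate input from cortex, hippocampus and amygdala. Several transcription programs read out recent events in such tissue. Calcium and cyclic AMP entering the nucleus induce immediate early genes such as Fos, Egr1 and the orphan nuclear receptors of the Nr4a family. Corticosterone, the adrenal stress hormone of mice, binds the glucocorticoid receptor and raises the transcription of Fkbp5, Sgk1, Tsc22d3 and other genes in neurons, glia and vessels. Interferons induce Irf7, MHC class I and antiviral genes.

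The libraries held between 20971967 and 30506640 counts assigned to genes, with a median of 25589574 after cocaine and 26500518 after saline. Levels below are CPM, counts set relative to library sizes scaled by the trimmed mean of M-values (TMM), and fold changes are log2 of cocaine over saline from edgeR's quasi-likelihood fit, with their standard error (SE). The punches were striatal. Drd1a, the D1 dopamine receptor, ranged from 231 to 405 CPM, with a median of 290 after cocaine and 304 after saline, and its log2 fold change was -0.00 (SE 0.139, n = 6 per group). They also held cortical RNA in unequal amounts. Slc17a7, the vesicular glutamate transporter of cortical neurons, had 6.82, 169 and 744 CPM as the lowest, median and highest cocaine values, and 5.79, 208 and 554 CPM in saline. The 4 libraries with the most Slc17a7 were cocaine replicates 3 and 6 and saline replicates 2 and 6. Cocaine replicate 6 stood apart in several results below, and its value is named there. In bulk tissue, fewer cells of a type and less RNA per cell cannot be told apart.

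Of 15878 genes tested, 2 rose after cocaine at an adjusted p under 0.05, which is 0.0126% of the genes, and 0 fell. Both of those that rose, Hif3a and Plin4, belong to a list of genes induced by glucocorticoids. Beyond them, 438 genes (2.76% of those tested) were higher with an unadjusted p under 0.05, and 198 (1.25%) were lower. The balance of these counts depended on single libraries. They were 741 and 738 without saline replicate 4, 559 and 406 without cocaine replicate 5, and 541 and 316 without cocaine replicate 6. The higher genes had small effects, with a median of 1.16-fold, and 3 of them reached 2-fold. The lower genes had a median of 1.24-fold and 3 reached 2-fold. At an unadjusted p under 0.001, 23 genes were higher and 0 were lower. DESeq2 called 21 genes higher and 0 lower at its adjusted threshold. In 50 genes (0.315% of those tested) every cocaine library lay above every saline library, and in 8 (0.0504%) every one lay below. The median over all genes was -0.0012 on the log2 scale, and 49.5% of genes had a positive value. Of the higher genes 9 (2.05%) were annotated as pseudogenes, against 17 (8.59%) of the lower genes and 4.54% of all genes tested.

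Plin4 and Hif3a carried the clearest difference between the groups. Plin4, a perilipin that coats lipid droplets (mm9 chr17:56240014-56249225, minus strand), had 10.2, 12.5 and 39.6 CPM as the lowest, median and highest cocaine values, and 2.15, 2.71 and 4.14 CPM in saline. The groups did not overlap. The log2 fold change was 2.57 (SE 0.34, n = 6 per group) and the adjusted p was 0.0199 by edgeR's quasi-likelihood test. The exact two-sided permutation test over all divisions of the 12 libraries into 6 and 6 gave p = 0.00216, the smallest it can give. Cocaine replicate 6 held the 39.6, and the next library had 18.3. Plin4 overlaps Hdgfrp2 on the opposite strand, and whether the counting used strand is not given in the sources used here. Hdgfrp2 itself had a log2 fold change of -0.05 (SE 0.104). Hif3a, a hypoxia-inducible factor that lacks the strong activation domain of its relatives (mm9 chr7:17616856-17647776, minus strand), had 10.8, 15.5 and 18.6 CPM after cocaine and 5.92, 7.22 and 8.65 CPM after saline. Every cocaine library again lay above every saline library. Its log2 fold change was 1.08 (SE 0.129, adjusted p = 0.0122, edgeR's quasi-likelihood test), with an exact permutation p of 0.00216. Both calls hold without cocaine replicate 6. Neither holds without saline replicate 2 or without saline replicate 3, when the adjusted p by the same edgeR test was 0.102 and 0.0609 for Plin4 and 0.0602 and 0.0554 for Hif3a. Plin4 also lost its call without cocaine replicate 5 (adjusted p = 0.0538, edgeR), without saline replicates 1, 4 or 5 (0.103, 0.0701 and 0.0911) and with limma-voom (0.116). Its log2 fold change was 2.44 with limma-voom, where Hif3a kept its call. Without the 4 libraries richest in Slc17a7, Plin4 kept its call and Hif3a had a log2 fold change of 1.00 with an adjusted p of 0.305.

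**Figure D1:**
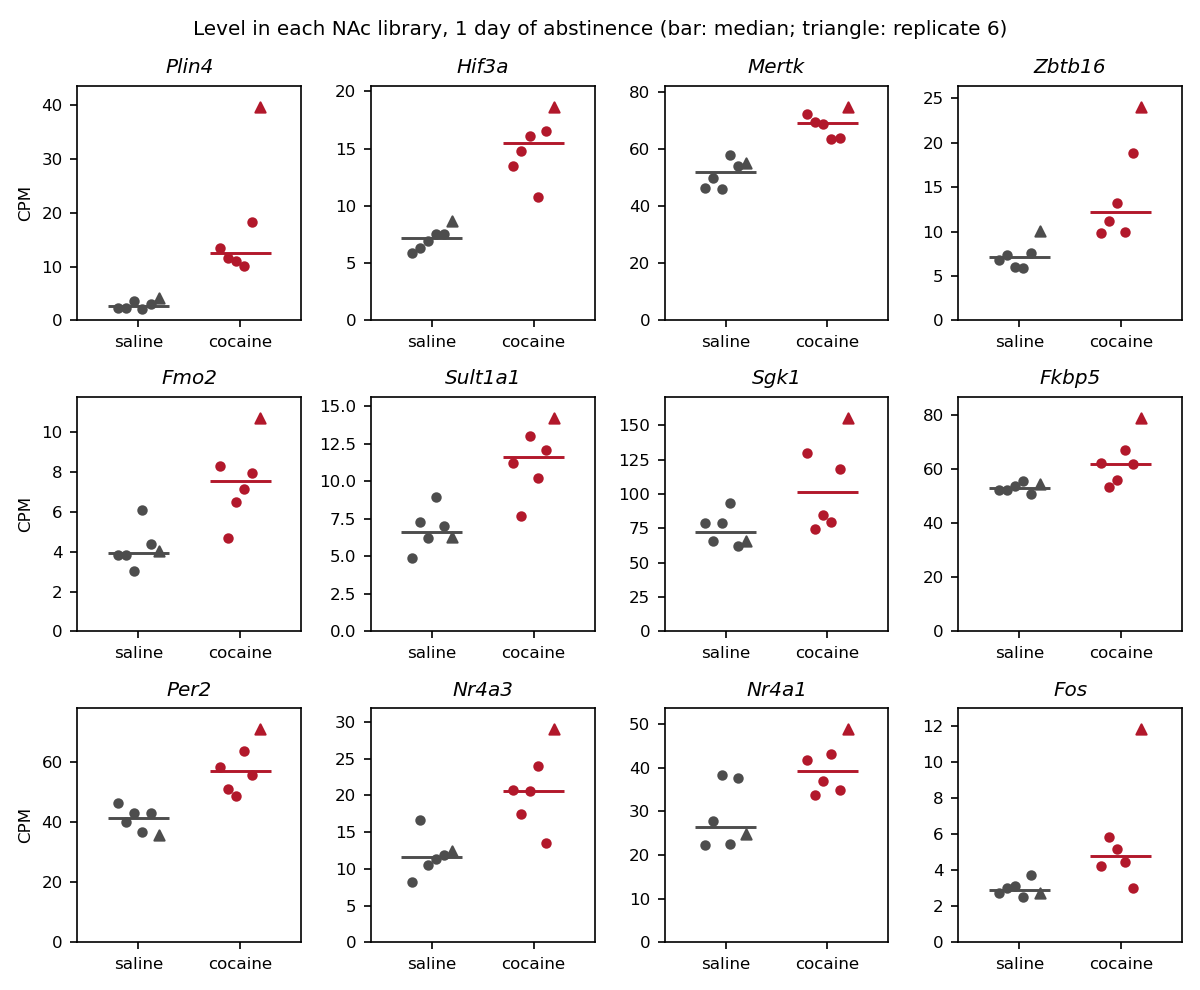
Level of 12 genes in each NAc library at 1 day, in CPM on linear axes that start at 0, with saline in grey, cocaine in red, a bar at each group's median and a triangle for replicate 6 of each group. In Plin4, Hif3a, Mertk and Per2 every red point lies above every grey one, while in the other panels the groups overlap, and the red triangle is the highest point of every panel (39.6 CPM for Plin4 and 11.8 CPM for Fos).

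Genes that glucocorticoids induce held the most higher members of any list. Of 33 tested, 15 (45.5%) were higher with an unadjusted p under 0.05, 0 were lower, and 31 had a positive value. Over all genes tested, 2.76% were higher, 1.25% were lower and 49.5% had a positive value. The median log2 fold change of the list was 0.22. The list includes Hif3a and Plin4 and was written with earlier results of these data known, which showed this pattern for 5 members, so its direction is not independent evidence. Without those 5, 11 of 28 were higher and 26 were positive, with a median of 0.19. The best known targets had modest differences. Fkbp5, the cochaperone that restrains the receptor, had 53.4, 62 and 78.7 CPM as the lowest, median and highest cocaine values, and 50.7, 53 and 55.4 CPM in saline. Sgk1, a kinase that controls ion transport, had 74.5, 101 and 155 CPM after cocaine and 62.4, 72.3 and 93.5 CPM after saline. Tsc22d3, also called GILZ, which blocks inflammatory transcription, had 53.1, 58.9 and 94.5 CPM against 44.2, 50.6 and 56.9 CPM. In all of these the groups overlap, and the medians after cocaine were the higher. Their log2 fold changes were 0.25 (SE 0.0813), 0.53 (SE 0.173) and 0.42 (SE 0.135).

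Larger differences came from members with metabolic and regulatory roles. Zbtb16, a zinc finger transcription factor, had 9.8, 12.2 and 24 CPM as the lowest, median and highest cocaine values against 5.85, 7.1 and 10.1 CPM in saline, a log2 fold change of 0.99 (SE 0.224). Fmo2, a flavin monooxygenase, had 4.69, 7.56 and 10.7 CPM against 3.01, 3.93 and 6.08 CPM, or 0.85 (SE 0.192) on the log2 scale. Sult1a1, a sulfotransferase that acts on phenols, had 7.66, 11.6 and 14.2 CPM against 4.88, 6.65 and 8.97 CPM, or 0.75 (SE 0.158). In these the groups overlapped only at their margins. Sult1a1 also overlaps Ccdc101 on the opposite strand, which had a log2 fold change of 0.01 (SE 0.116). Mertk, a receptor through which astrocytes and microglia engulf debris, had groups that did not overlap, at 63.6, 69.1 and 74.6 CPM against 46.1, 52 and 57.8 CPM. Its log2 fold change was 0.41 (SE 0.0691) with an adjusted p of 0.17 by edgeR's quasi-likelihood test, and DESeq2 gave it an adjusted p of 8.88e-05. Xdh, which makes uric acid, had a log2 fold change of 0.55 (SE 0.151), and Gjb6, the astrocyte connexin 30, one of 0.45 (SE 0.13). Arrdc2, Map3k6, Pla2g3 and Dusp1 completed the 15, between 0.22 and 0.47. Per1, a clock gene with well known glucocorticoid response elements, had 70.3, 85.5 and 98.0 CPM against 54.7, 74.9 and 96.2 CPM, with an unadjusted p of 0.209 by the edgeR test.

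The mean level of the 33 members, each set relative to its own mean over the 12 libraries, was -0.01 to 0.52 on the log2 scale after cocaine and -0.29 to -0.08 after saline. All 6 cocaine libraries lay above all 6 saline libraries. Without the 5 members known earlier the ranges were -0.05 to 0.44 and -0.23 to -0.03, and 5 cocaine libraries lay above all saline libraries. Cocaine replicate 6 was the highest cocaine library for 22 of the 33 genes. Without it, 12 members were higher with an unadjusted p under 0.05, beside 541 of all 15970 genes tested, and the median was 0.17. For the receptor itself no difference was detected. Nr3c1, the glucocorticoid receptor, had a log2 fold change of 0.01 (SE 0.0779). Nr3c2, the mineralocorticoid receptor, had one of -0.10 (SE 0.0851). Among 13 receptors and peptides of the stress axis, 1 had an unadjusted p under 0.05, the corticotropin-releasing hormone receptor Crhr1, at -0.28 (SE 0.128).

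The promoters of the 3 members with the smallest p-values, and of Sult1a1, chosen because its window holds matches, are shown with any match to the steroid receptor half-site AGAACA in capitals, on either strand. Each is the 250 bases before the start of the gene in RefSeq on GRCm38.p6, read 5′ to 3′ on the strand of the gene. Coordinates of these windows are on that build, whereas the gene positions above are on mm9.
Hif3a, chr7:17062428-17062677, minus strand: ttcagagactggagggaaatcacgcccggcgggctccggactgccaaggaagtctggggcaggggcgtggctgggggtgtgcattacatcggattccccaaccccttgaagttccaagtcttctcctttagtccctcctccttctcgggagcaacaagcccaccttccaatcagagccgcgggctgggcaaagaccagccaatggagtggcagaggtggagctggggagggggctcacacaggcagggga
Plin4, chr17:56109783-56110032, minus strand: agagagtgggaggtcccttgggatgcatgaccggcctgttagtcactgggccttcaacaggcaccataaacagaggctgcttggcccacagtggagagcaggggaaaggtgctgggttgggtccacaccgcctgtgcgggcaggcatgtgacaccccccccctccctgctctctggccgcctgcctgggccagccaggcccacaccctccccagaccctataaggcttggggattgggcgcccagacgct
Mertk, chr2:128698665-128698914, plus strand: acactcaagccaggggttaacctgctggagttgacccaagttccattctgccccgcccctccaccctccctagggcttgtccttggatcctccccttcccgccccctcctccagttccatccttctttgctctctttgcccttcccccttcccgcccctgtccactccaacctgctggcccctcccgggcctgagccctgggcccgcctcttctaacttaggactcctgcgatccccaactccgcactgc
Sult1a1, chr7:126676419-126676668, minus strand: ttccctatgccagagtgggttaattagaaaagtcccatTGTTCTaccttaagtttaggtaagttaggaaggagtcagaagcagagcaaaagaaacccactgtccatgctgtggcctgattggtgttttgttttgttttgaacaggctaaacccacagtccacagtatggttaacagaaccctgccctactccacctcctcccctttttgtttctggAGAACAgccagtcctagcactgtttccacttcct

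The Hif3a, Plin4 and Mertk windows hold 0 matches, and that of Sult1a1 holds 2. Of the 15 members with an unadjusted p under 0.05, 12 had a promoter in the RefSeq table, and 4 of these held AGAACA in at least 1 of their windows, of which Sgk1, Tsc22d3 and some others have several. Of 32851 single promoters of the same length, 16.1% hold it, so the count per gene and the share per promoter are not in the same unit. A match is a description of the letters in this window and says nothing of binding.

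Clock genes differed less. Of 21 tested, 3 (14.3%) were higher with an unadjusted p under 0.05 and 0 were lower, with a median log2 fold change of 0.09. Over all genes tested, 2.76% were higher and 1.25% were lower. Per2, a repressor arm of the clock, had 48.7, 57.1 and 70.9 CPM as the lowest, median and highest cocaine values and 35.8, 41.5 and 46.5 CPM in saline. The groups did not overlap. The log2 fold change was 0.51 (SE 0.095) with an adjusted p of 0.279 by edgeR's quasi-likelihood test and 0.00206 by DESeq2. Cry1 and Per3, which act in the same repressor complex, had 0.24 (SE 0.0849) and 0.19 (SE 0.0775), and their groups overlap.

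**Figure D2:**
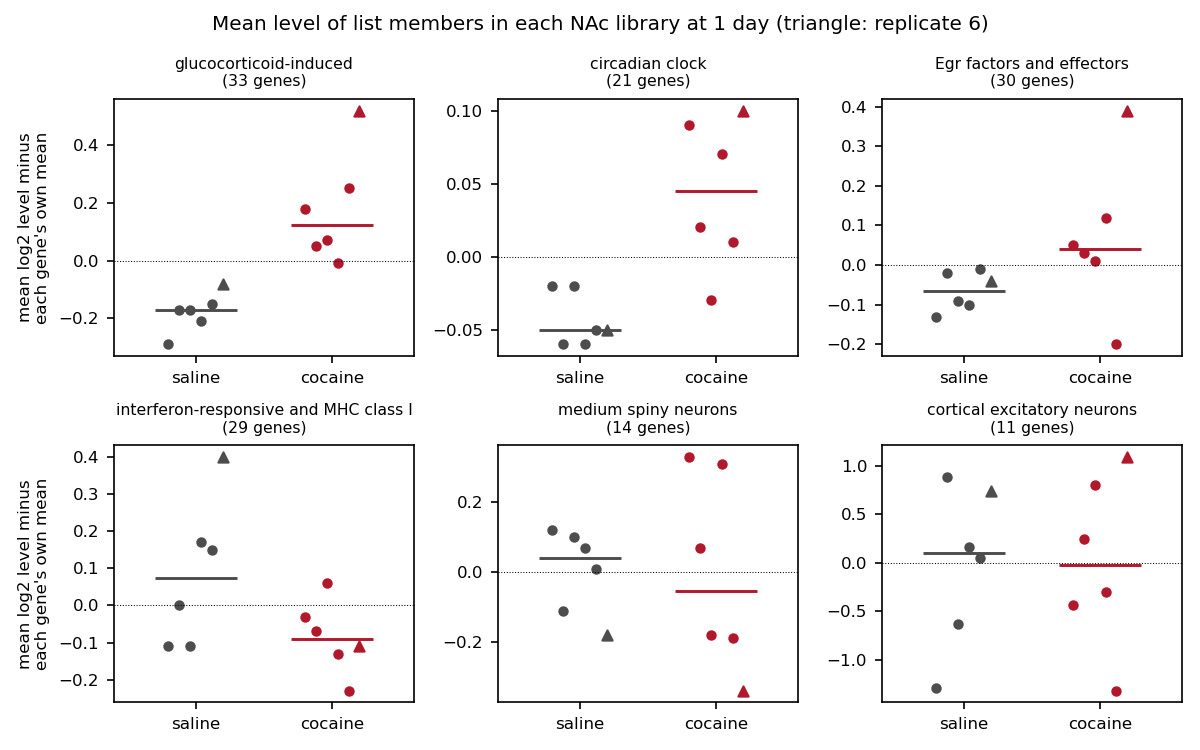
Mean level of the members of 6 gene lists in each NAc library at 1 day, as log2 CPM minus each gene's mean over the 12 libraries, with saline in grey, cocaine in red, a bar at each group's median and a triangle for replicate 6. For the glucocorticoid-induced list the cocaine libraries span -0.01 to 0.52 and the saline libraries -0.29 to -0.08, without overlap, and in the other panels the groups overlap. Without the 5 members of that list known earlier, not drawn here, its groups overlap as well.

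Several immediate early genes also had higher levels after cocaine, 1 day after the last session. Among the 3 Nr4a receptors, which bind DNA without a known natural ligand, 2 were higher with an unadjusted p under 0.05, beside 2.76% of all genes. Nr4a1 had 33.7, 39.3 and 48.8 CPM as the lowest, median and highest cocaine values and 22.4, 26.4 and 38.4 CPM in saline. Nr4a3 had 13.5, 20.7 and 29 CPM against 8.26, 11.6 and 16.6 CPM. Both overlapped between the groups by a few libraries. Their log2 fold changes were 0.46 (SE 0.148) and 0.82 (SE 0.179), with unadjusted p-values of 0.00747 and 0.000419 by the edgeR test. Nr4a2 spread widely, from 2.06 to 43.2 CPM after cocaine and from 1.17 to 20.1 CPM after saline, and its log2 fold change of 0.52 (SE 0.665) was smaller than its SE. Without cocaine replicate 6, 2 of the 3 receptors had a positive value, Nr4a1 and Nr4a3, and Nr4a2 did not. Nr4a2 also marks deep cortical and claustral neurons, which a punch could hold.

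Counts in the AP-1 and Egr families rested in part on cocaine replicate 6. Beside them, 2.76% of all genes tested were higher and 1.25% were lower with an unadjusted p under 0.05. Fos, the founding AP-1 subunit, had 3.03, 4.8 and 11.8 CPM as the lowest, median and highest cocaine values against 2.54, 2.89 and 3.74 CPM in saline. Its log2 fold change was 0.95 (SE 0.267), and 0.60 without cocaine replicate 6, with an unadjusted p of 0.00243 by the edgeR test. Fosl2 had a value of 0.47 (SE 0.208), also with its highest level, 53.7 CPM, in cocaine replicate 6. These were the 2 of 8 AP-1 genes with an unadjusted p under 0.05, and the median of the 8 was 0.11. Without cocaine replicate 6 the median was 0.00, and 1 was higher, Fos, and 1 lower, the repressor Jdp2, at -0.47. Fosb, whose product accumulates as delta FosB under repeated drug exposure, had 6.94, 8.93 and 10.9 CPM against 6.78, 8.45 and 9.82 CPM, and a log2 fold change of 0.12 (SE 0.125). Of 30 Egr factors and activity-regulated effectors, 5 were higher and 0 were lower, with 22 positive and a median of 0.11, and without cocaine replicate 6 there were 3 higher and a median of 0.06. Egr2 had 0.87 (SE 0.272), Egr4 0.41 (SE 0.134) and Egr1 0.37 (SE 0.147). Arc, a synaptic protein whose RNA travels to active dendrites, had 0.50 (SE 0.213), and Tiparp, an ADP-ribosyltransferase, 0.34 (SE 0.0893). Among 21 MAP kinase feedback genes, the phosphatases Dusp4, at 0.56 (SE 0.174), and Dusp1, at 0.22 (SE 0.102), had an unadjusted p under 0.05, and without cocaine replicate 6 Dusp4 alone did. Among 26 CREB factors and coactivators the 1 with such a p was Creb5, at -0.44 (SE 0.177).

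The promoters of Nr4a1, Nr4a3 and Fos are shown because they carry the core of the cyclic AMP response element, TGACG, in capitals on either strand. They are the 250 bases before each start on GRCm38.p6 from RefSeq, read as above.
Nr4a1, chr15:101266596-101266845, plus strand: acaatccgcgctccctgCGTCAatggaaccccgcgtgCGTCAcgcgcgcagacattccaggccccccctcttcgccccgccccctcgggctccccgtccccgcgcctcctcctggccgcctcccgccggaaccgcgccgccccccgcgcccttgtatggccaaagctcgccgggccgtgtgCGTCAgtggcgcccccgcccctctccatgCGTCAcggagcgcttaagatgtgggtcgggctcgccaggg
Nr4a3, chr4:48045055-48045304, plus strand: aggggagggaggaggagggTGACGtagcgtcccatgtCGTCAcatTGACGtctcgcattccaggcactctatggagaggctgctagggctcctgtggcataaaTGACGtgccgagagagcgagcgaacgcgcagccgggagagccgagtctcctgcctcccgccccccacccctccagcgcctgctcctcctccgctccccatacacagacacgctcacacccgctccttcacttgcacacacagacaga
Fos, chr12:85473640-85473889, plus strand: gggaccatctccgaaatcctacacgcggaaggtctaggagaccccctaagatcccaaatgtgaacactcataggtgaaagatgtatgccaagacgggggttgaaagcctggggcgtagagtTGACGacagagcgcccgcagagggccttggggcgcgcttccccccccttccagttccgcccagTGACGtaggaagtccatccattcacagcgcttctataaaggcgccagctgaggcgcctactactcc

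The windows of Nr4a1 and Nr4a3 hold 4 copies each and that of Fos holds 2. Of the Nr4a, AP-1, Egr and effector genes with an unadjusted p under 0.05, 7 had a promoter in the table, and 5 of them held TGACG in at least 1 window. Egr2 has several windows, some without it. Of all 32851 promoters, counted singly, 17.8% hold it. The full palindrome TGACGTCA was in 0 of the 7 and in 1.55% of all.

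Outside these lists, the genes with the smallest p-values had small differences with tight groups. Kirrel2, an adhesion protein of the immunoglobulin superfamily, had 10.8, 12.9 and 13.3 CPM as the lowest, median and highest cocaine values against 7.76, 8.64 and 9.95 CPM in saline. Ccdc141, a coiled-coil protein involved in neuronal migration, had 28.4, 30.8 and 33 CPM against 23.5, 24.3 and 26.9 CPM. Neither overlapped, and their log2 fold changes were 0.50 (SE 0.0906) and 0.32 (SE 0.0598), each with an adjusted p of 0.279 by edgeR's quasi-likelihood test. Mfsd2a, the lipid transporter of the blood-brain barrier endothelium, had 19.9, 23.6 and 30.2 CPM against 14.9, 17.7 and 19.1 CPM, also without overlap, and a log2 fold change of 0.47 (SE 0.0993). Zkscan3, a zinc finger protein that represses autophagy genes, had 0.30 (SE 0.0576). Ahnak, a giant scaffold protein, had 0.36 (SE 0.0815), and Raver2, a partner of splicing repressors, 0.33 (SE 0.069). Sfpq, a nuclear RNA-binding protein, had 220, 240 and 256 CPM against 182, 205 and 215 CPM, or 0.25 (SE 0.0614). Cbl, an E3 ubiquitin ligase, had 61.3, 66.6 and 69.7 CPM against 55.7, 55.9 and 61.3 CPM, or 0.21 (SE 0.0501). The noncoding gene Gm12940 overlaps Sfpq, so their reads cannot be told apart where they overlap. The same limit holds for Mertk with Gm14011, Raver2 with Jak1, Irf7 with Phrf1, Angptl2 with Ralgps1 and Ahsa2 with Usp34, which lie on opposite strands. Tra2a and Srek1, regulators of splicing chosen after their values were seen, had 0.27 (SE 0.0706) and 0.20 (SE 0.0549).

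Of the lower genes with the smallest p-values, several stood at low levels. Cited4, a coactivator that binds CBP and p300, had 1.45, 1.79 and 2.37 CPM as the lowest, median and highest cocaine values and 2.37, 2.81 and 3.46 CPM in saline, which did not overlap before rounding. Its log2 fold change was -0.59 (SE 0.144) with an adjusted p of 0.721 by edgeR's quasi-likelihood test. Des, the muscle intermediate filament found in pericytes and smooth muscle, had 0.751, 0.925 and 1.28 CPM against 1.25, 1.36 and 1.75 CPM. Angptl2, a secreted protein of the angiopoietin-like family, had 2.97, 3.23 and 3.79 CPM against 3.38, 4.85 and 5.76 CPM. Gkn3, which marks arterial endothelium in brain, had 2.21, 3.17 and 4.17 CPM against 3.77, 4.49 and 5.63 CPM. The log2 fold changes of these 3 were -0.58 (SE 0.161), -0.51 (SE 0.126) and -0.56 (SE 0.146). Pllp, a myelin protein, and Tspan9, a tetraspanin, stood at higher levels. Pllp had a value of -0.28 (SE 0.0784), and Tspan9 had one of -0.21 (SE 0.0584) with groups that did not overlap. Syt12, a synaptotagmin that does not bind calcium, had 34.8, 39.1 and 44.2 CPM against 43.7, 46 and 47.5 CPM.

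Interferon-responsive and MHC class I genes held the most lower members of any list. Of 29 tested, 5 (17.2%) were lower with an unadjusted p under 0.05, 0 were higher and 4 were positive, with a median log2 fold change of -0.22. Over all genes tested, 1.25% were lower, 2.76% were higher and 49.5% were positive. Irf7, the transcription factor that amplifies interferon production, had 0.877, 1.04 and 1.2 CPM as the lowest, median and highest cocaine values and 0.911, 1.67 and 4.96 CPM in saline. The cocaine values were narrow, and the saline group ran upward from within them. The log2 fold change was -1.04 (SE 0.351). H2-K1 and H2-D1, the class I molecules that present peptides, had -0.30 (SE 0.0918) and -0.25 (SE 0.095). Ifitm3, which blocks viral entry, had 5.22, 5.58 and 6.66 CPM against 5.82, 6.78 and 10.7 CPM, and Usp18, which restrains interferon signalling, had a log2 fold change of -0.65 (SE 0.294). The highest values of Irf7 and Ifitm3 both came from saline replicate 6. Without saline replicate 6, 2 of the 29 were lower and 1 was higher. Leaving out other single libraries gave 3 to 7 lower, and 2 were lower without the 4 libraries richest in Slc17a7. With a covariate for cortical RNA, 6 were lower and the median was -0.21. Among 16 microglia markers 0 had an unadjusted p under 0.05 and the median was -0.06. None of the 24 cytokine and inflammatory genes had such a p either.

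**Figure D3:**
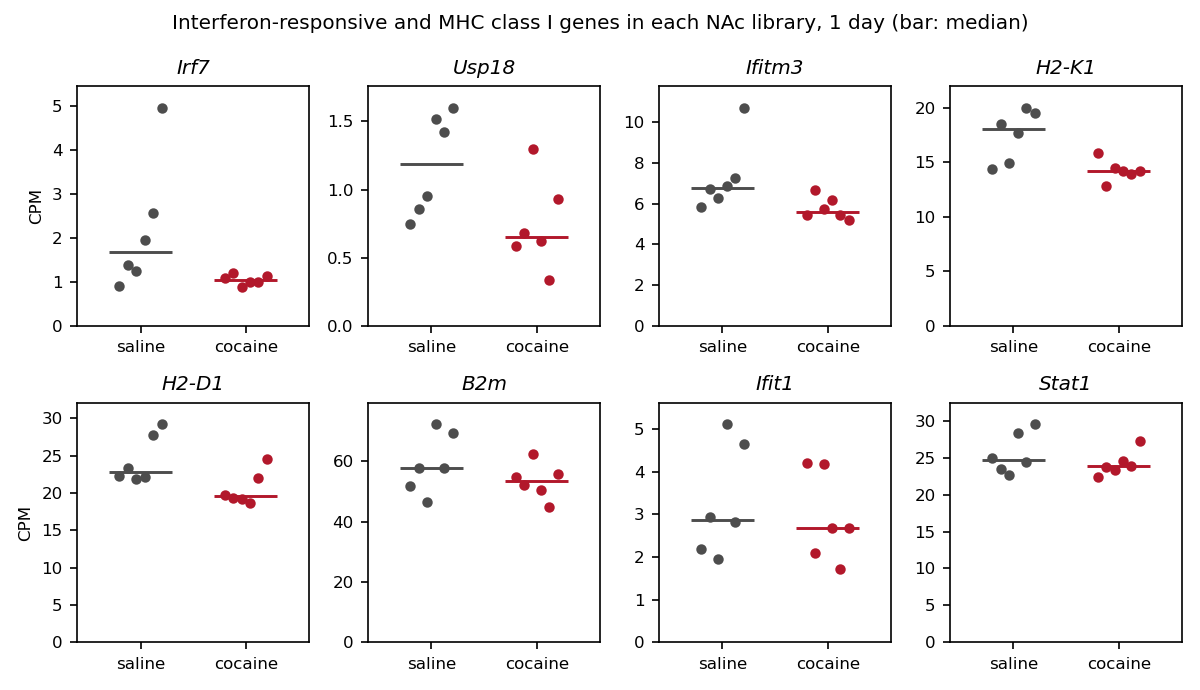
Levels of 8 interferon-responsive and MHC class I genes in each NAc library at 1 day, in CPM on linear axes that start at 0, with saline in grey, cocaine in red and a bar at each group's median. The highest saline value exceeds the highest cocaine value in every panel, and the groups overlap (Irf7 spans 0.877 to 1.2 CPM after cocaine and 0.911 to 4.96 CPM after saline).

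Among 180 cell type markers 4 were higher (2.22%) and 2 were lower (1.11%) with an unadjusted p under 0.05, beside 2.76% and 1.25% of all genes. Of 14 markers shared by medium spiny neurons 0 had an unadjusted p under 0.05, nor did any of 9 markers of the D1 class or 7 of the D2 class. Drd2, the D2 receptor, had 124, 163 and 219 CPM as the lowest, median and highest cocaine values and 141, 169 and 192 CPM in saline. Penk, the enkephalin precursor of D2 neurons, had 989, 1368 and 1838 CPM against 1158, 1449 and 1620 CPM, and Pdyn, the dynorphin precursor of D1 neurons, had 201, 332 and 384 CPM against 253, 301 and 358 CPM. In each of these the cocaine range was the wider and covered the saline range. In the glial lists single genes passed. Gjb6 was the 1 of 15 astrocyte markers, while Slc1a2, the main glutamate transporter of astrocytes, had 0.15 (SE 0.124). Opalin, a myelin protein at -0.31 (SE 0.105), was the 1 of 15 oligodendrocyte markers. Of 12 markers of oligodendrocyte precursors, Vcan, a matrix proteoglycan, had 0.28 (SE 0.102) and Gpr17, a receptor of cells about to differentiate, 0.19 (SE 0.0741). In the vascular lists Mfsd2a was the 1 of 14 endothelial markers and Des the 1 of 11 pericyte and smooth muscle markers. Fibroblasts, blood and cholinergic interneurons had 0 such genes among 13, 6 and 7, with medians of -0.24, -0.24 and -0.14.

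Many lists of transmission and synaptic genes held 0 called genes. Over all genes tested, 2.76% were higher and 1.25% lower with an unadjusted p under 0.05. A count of 0 in a list of few genes is near these shares. Among 27 genes of dopamine receptors and striatal signalling, 7 opioid peptides and receptors, 21 AMPA and kainate subunits, 15 NMDA and metabotropic glutamate receptors, 33 presynaptic, 29 postsynaptic and 22 neurexin and neuroligin genes, 0 had an unadjusted p under 0.05 in either direction. The same count of 0 held for 73 subunits of oxidative phosphorylation, 78 cytosolic ribosomal proteins and 20 enzymes of glycolysis. Some of these counts depended on a library. Without saline replicate 4, 9 oxidative phosphorylation, 8 ribosomal, 5 glycolysis and 3 AMPA and kainate genes were lower, beside 738 of all 15976 genes tested. Without cocaine replicate 6, 4 oxidative phosphorylation, 3 glycolysis and 3 presynaptic genes were lower, beside 316 of all 15970 genes tested. A missed threshold does not show that levels were equal. Ion channels had a few members. Cacna1e, the R-type calcium channel, had 438, 499 and 518 CPM as the lowest, median and highest cocaine values against 379, 428 and 456 CPM in saline, a log2 fold change of 0.22 (SE 0.0666). Kcnn2, a calcium-activated potassium channel, had 0.32 (SE 0.108), and Kcnj4, an inward rectifier of medium spiny neurons, -0.25 (SE 0.11). Gabrb1, a GABA-A receptor subunit, had 0.14 (SE 0.063). In all, 27 of 56 lists held 0 genes with an unadjusted p under 0.05.

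**Figure D4:**
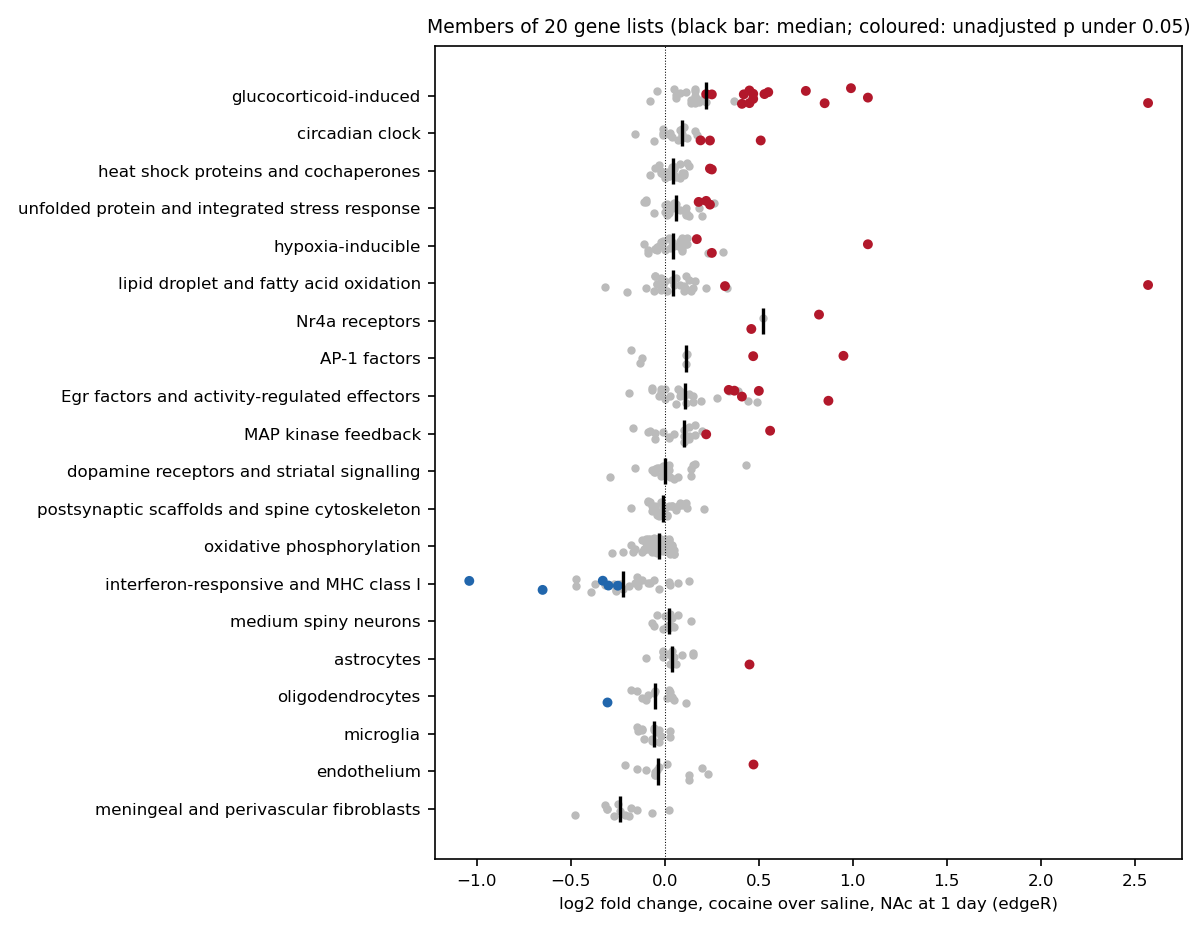
Log2 fold change of cocaine over saline in the NAc at 1 day for the tested members of 20 gene lists, 1 point per gene, red or blue where it was higher or lower with an unadjusted p under 0.05, with a black bar at each list's median. Over all 15878 genes 2.76% were higher and 1.25% lower by that rule. The glucocorticoid-induced list has the most members higher, 15 of 33, and the interferon and MHC class I list the most lower, 5 of 29. The former list was written with earlier results for 5 members known, and without those 11 of 28 were higher.

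Whether the effect of cocaine differed between 1 and 28 days was tested as an interaction in the 24 NAc libraries of both times. The effect of cocaine differed between the times at an adjusted p under 0.05 for 3 of 16612 genes (0.0181%), by edgeR's quasi-likelihood test. For Plin4 the effect at 1 day exceeded that at 28 days by 3.22 on the log2 scale (SE 0.462, adjusted p = 0.00477), for Hif3a by 1.35 (SE 0.233, adjusted p = 0.0381) and for Per2 by 0.79 (SE 0.138, adjusted p = 0.0381). The interaction includes the 1-day values, so Plin4 and Hif3a entered it with a difference already called, and Per2 with groups that did not overlap. At 28 days Plin4 had 2.34, 3.83 and 4.92 CPM as the lowest, median and highest cocaine values and 3.55, 4.69 and 10.7 CPM in saline. Hif3a had 4.47, 5.63 and 8.22 CPM against 5.24, 6.93 and 9.32 CPM, and Per2 42.7, 48.9 and 52.7 CPM against 42.9, 61.5 and 64.5 CPM. In all 3 the cocaine median was then the lower, with overlap. No gene passed at 28 days, where the smallest adjusted p by the same edgeR test was 0.592 and 3.34% of genes were higher and 3.42% lower with an unadjusted p under 0.05.

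Counts for the lists at 28 days follow, beside 3.34% of all genes higher and 3.42% lower with an unadjusted p under 0.05 at that time. Of the 33 glucocorticoid-induced genes 0 were higher and 3 were lower at 28 days, 7 were positive and the median log2 fold change was -0.09. Of 21 clock genes 0 were higher and 7 lower, with a median of -0.12. The interferon and MHC class I genes had a negative median at both times, -0.22 at 1 day and -0.21 at 28 days, when 11 were lower. In the interaction fit itself, where 2.75% of genes had a larger effect at 1 day with an unadjusted p under 0.05, 13 of the 33 glucocorticoid-induced genes did, and 32 had a positive value. That fit includes the 1-day values, and the list was written with the 1-day pattern of 5 members known. These counts are therefore not independent evidence.

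The other regions gave side-by-side values at 1 day, from RPKM tables normalised by the authors and compared by limma on log2(RPKM + 0.1), which understates the change of low genes. The authors' methods describe dissecting NAc, VTA and PFC once brains were removed, and the labels do not say which libraries share a mouse. The regions may therefore share mice, and their values are not independent replication. In the PFC 1.64% of genes were higher and 2.5% lower with an unadjusted p under 0.05, and in the VTA 11.1% and 4.29%. Of the glucocorticoid-induced genes, 16 of 33 were higher in the PFC, with a median of 0.22, and 20 of 33 in the VTA, with a median of 0.53. Plin4 had 2.1, 3.03 and 5.57 RPKM in PFC after cocaine against 0.361, 0.598 and 0.953 RPKM after saline, and 3.26, 6.32 and 15 RPKM against 1.11, 1.47 and 2.18 RPKM in VTA. Its adjusted p by limma was 0.0117 in PFC and 0.0315 in VTA, where 0.00693% and 0.16% of genes were higher at an adjusted p under 0.05 and 0% and 0.0266% were lower. Hif3a had an adjusted p of 0.455 and 0.106. Over all genes tested, 45.4% had a positive value in PFC and 58.9% in VTA. Of the 15 genes with the smallest p among those higher in the NAc, 13 were positive in PFC and 15 in VTA. Of the 15 lower, 9 of 12 tested were negative in PFC and 6 of 14 in VTA. The interferon list had a median of -0.22 in PFC and 0.25 in VTA. The VTA libraries also differed in other cell types, since 8 of 13 fibroblast markers were higher after cocaine and 11 of 16 microglia markers lower, and their part in the VTA values was not tested.

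**Figure D5:**
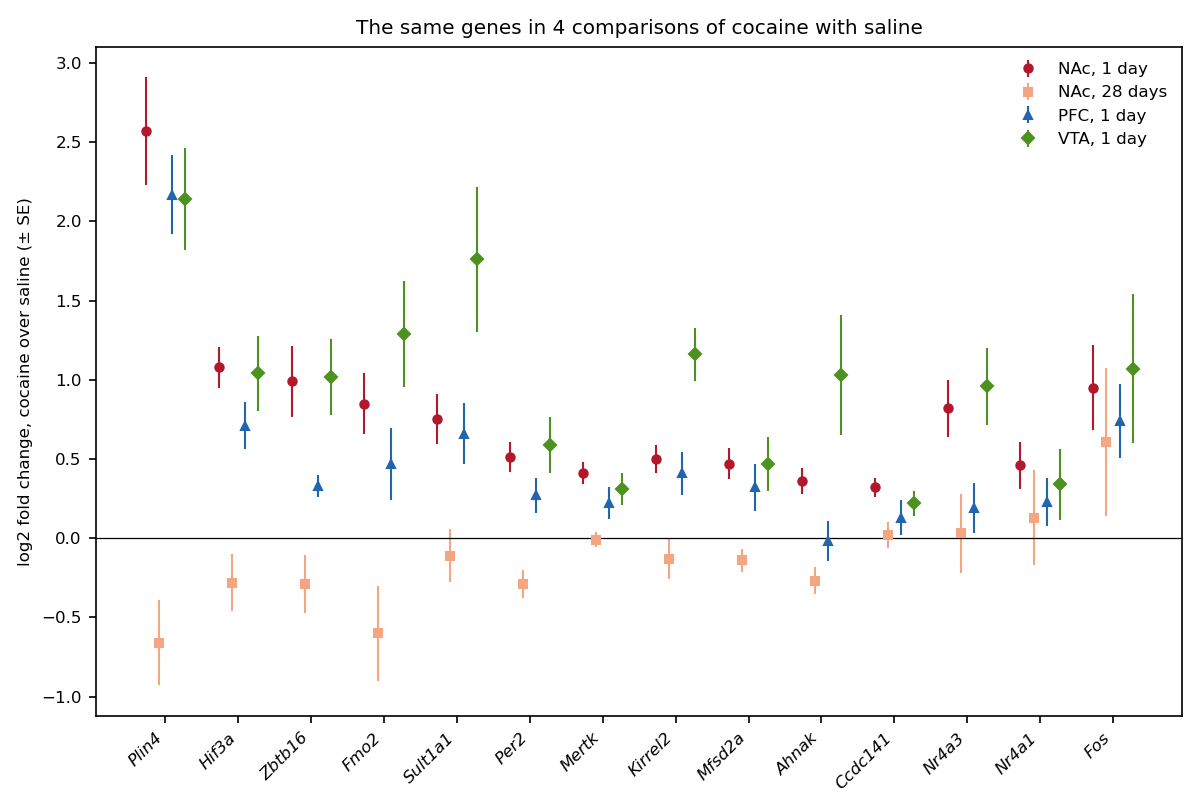
Log2 fold change of cocaine over saline for 14 of the named genes in the NAc at 1 day and, side by side, in the NAc at 28 days, the PFC at 1 day and the VTA at 1 day, with bars of 1 SE (edgeR for the NAc, limma for PFC and VTA). Plin4 lies at 2.57 in the NAc at 1 day and at -0.66 in the NAc at 28 days.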

How the data were processed

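Per the labels, RNA from NAc micro-punches was sequenced in 6 cocaine and 6 saline libraries at 1 day. The authors aligned reads to mm9 with the Ensembl annotation using STAR 2.4.1d, according to their methods and the submitters' processing notes. The deposited NAc tables hold raw counts per gene, and the authors converted the PFC and VTA counts to RPKM, which were analysed on their own scale with a pseudocount of 0.1 and a mean RPKM of at least 0.5. The counting tool, its strand setting and the RNA kit are not given in the sources used here. Columns with the authors' fold changes and p-values were not used, and 30 further columns of values per library were not used. Columns of the 28-day tables name a group but not a sample, and were used as unnumbered replicates.

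Counts were filtered with filterByExpr (minimum count 10, minimum total 15), scaled by TMM and tested with edgeR 4.0.16 in R 4.3.3 by glmQLFit and glmQLFTest with Benjamini-Hochberg adjustment over all genes tested. PFC and VTA were tested with limma 3.58.1. DESeq2 1.42.0, limma-voom, the robust likelihood ratio test of edgeR, other filters and scalings, a replicate block and the removal of each library were alternatives. A covariate for cortical RNA and removal of the 4 libraries richest in Slc17a7 were chosen after seeing the data. Scripts were tested on simulated data. Permutation tests used log2(CPM + 0.5). A total of 20971967 to 30506640 counts per library sets the precision at low levels.

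Genes were named if they had an adjusted p under 0.05, were among the 15 smallest p-values in each direction, were among the 5 smallest of a list or the first 3 of a cell type list, or are named by the study for this comparison. Tra2a and Srek1 were chosen after their values were seen. So were further members of the glucocorticoid-induced, clock, Nr4a, AP-1 and interferon lists, among them Fkbp5, Sgk1 and Tsc22d3. The comparison, its 56 gene lists and the named genes were chosen with earlier results of these data known. Some lists overlap. The list symbols were matched to gene symbols in the files, 11 of them by an older symbol. Promoters come from RefSeq on GRCm38.p6.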

Additional observations from a re-analysis of the deposited data

Results flagged for a closer look

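Among 80 named genes, each group of 6 libraries was examined for 1 library far from the others by Dixon's criterion, which flags about 5% of groups by chance. Of 160 groups 7 were flagged, 5 of them by cocaine replicate 6. In that library Plin4 had 39.6 CPM with the next at 18.3, Fos 11.8 CPM with the next at 5.82, Fosl2 53.7 CPM with the next at 34.2, Kcnn2 30.1 CPM with the next at 23.1 and Map3k6 2.79 CPM with the next at 1.9. In saline replicate 6, Ifitm3 had 10.7 CPM with the next at 7.25, and H2-Gs10, an MHC class I gene with close copies in the genome, had 5.04 CPM with the next at 3.5. Both libraries were among the 4 richest in Slc17a7, and the part of cortical RNA in these values was not tested.

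The effect of cocaine differed between 1 and 28 days for Plin4 by 3.22 on the log2 scale (SE 0.462), for Hif3a by 1.35 (SE 0.233) and for Per2 by 0.79 (SE 0.138), with adjusted p-values of 0.00477, 0.0381 and 0.0381 by edgeR's quasi-likelihood test of the interaction.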

How the results depend on the processing

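The number of genes higher at an adjusted p under 0.05, 2, became 21 with DESeq2, 14 with edgeR's robust likelihood ratio test, 1 with limma-voom, 4 with a covariate for cortical RNA and 1 without the 4 libraries richest in Slc17a7. Leaving out each library in turn gave 0 to 2, with 0 without saline replicate 2 or saline replicate 3 and 1 (Hif3a) without cocaine replicate 5 or saline replicate 1, 4 or 5. The number lower was 0 under each of these. Genes higher with an unadjusted p under 0.05, 438, were 322 to 741 with a library left out, the most without saline replicate 4, and 201 without the 4 libraries. Genes lower by that rule, 198, were 323 with the robust test, 325 with no filter on low counts, 108 without the 4 libraries and 135 to 738 with a library left out. Of these, 738 came without saline replicate 4, 406 without cocaine replicate 5 and 316 without cocaine replicate 6. The interaction count of 3 became 10 with DESeq2. The cause of these changes was not tested. With the replicate block the counts were 2 and 0. Same-numbered cocaine and saline libraries correlated at -0.47 to 0.601 in their deviations from the group means, and 2 of 6 cocaine libraries correlated best with their own number, so the numbers were not taken as pairs. Apart from Nr4a2, which was not positive without cocaine replicate 6, none of the 80 genes recomputed under each setting changed sign. In VTA, Plin4 (adjusted p = 0.0559, limma) and Kirrel2 (0.0549) missed the threshold with no filter on low values. Depth limits most the genes near 1 CPM and below.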

Other observations

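The lists of the unfolded protein response, heat shock, hypoxia and lipid droplets held 2 or 3 higher genes each, or 6.67% to 11.5% of their members, beside 2.76% of all genes, and several of these counts rested on 1 library. Of 26 genes of the unfolded protein response, 3 were higher with an unadjusted p under 0.05 by edgeR's quasi-likelihood test and 0 were lower, with a median log2 fold change of 0.06. Hspa5, the main chaperone of the endoplasmic reticulum, had 221, 244 and 349 CPM as the lowest, median and highest cocaine values and 196, 224 and 256 CPM in saline. Pdia4, a disulfide isomerase, had a log2 fold change of 0.22 (SE 0.1), and Xbp1, a transcription factor of the response, one of 0.18 (SE 0.0797). Without cocaine replicate 6, 0 of the 26 were higher and the median was 0.02. That library had a mean level of the list of 0.24 on the log2 scale, against -0.05 to 0.06 in the other cocaine libraries. The count was also 0 without cocaine replicate 4 or saline replicate 1, 2 or 6. Of 28 heat shock genes 2 were higher, Hspa5 and Ahsa2, a cochaperone of Hsp90. Without cocaine replicate 6, 1 was higher, Ahsa2. Without saline replicate 4, 5 were higher, beside 741 of all 15976 genes tested. Ahsa2 had 25.3, 26.9 and 31.2 CPM against 21.4, 22.6 and 24.6 CPM, without overlap. At 28 days 7 of the 28 were higher, beside 3.34% of all genes at that time. Of 30 hypoxia-inducible genes 3 were higher. Beside Hif3a these were P4ha1, a collagen prolyl hydroxylase, at 0.25 (SE 0.107), and Arnt, the partner of the hypoxia-inducible factors, at 0.17 (SE 0.0731). Leaving out single libraries gave 1 to 5. Of 30 genes of lipid droplets and fatty acid oxidation 2 were higher, Plin4 and Ppara, a receptor that senses fatty acids, at 0.32 (SE 0.114), and leaving out single libraries gave 2 to 5.

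Chromatin, matrix and guidance genes gave single members. Sirt1, a deacetylase that depends on NAD, had a log2 fold change of 0.21 (SE 0.0941) and Setdb1, a histone H3 lysine methyltransferase, one of 0.17 (SE 0.0564). Setdb1 was the 1 of 31 histone and DNA methylation enzymes with an unadjusted p under 0.05, beside 2.76% of all genes higher and 1.25% lower. Without cocaine replicate 6, 6 were higher, beside 541 of all 15970 genes tested. Without saline replicate 4, 5 were higher, beside 741 of 15976. Timp3, an inhibitor of matrix proteases, had 196, 218 and 237 CPM after cocaine against 171, 185 and 212 CPM after saline. Unc5b, a netrin receptor, had 18.4, 22.6 and 27.1 CPM against 23.6, 26.6 and 33.2 CPM, a log2 fold change of -0.31 (SE 0.104), while Plxna2, a semaphorin receptor, had 0.12 (SE 0.0564). Adra2b, an alpha-2 adrenergic receptor, had -0.39 (SE 0.17), and Psmb5, a catalytic subunit of the proteasome, -0.23 (SE 0.104). The groups overlapped for each of these.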
